A study of Mus musculus with 4 samples.

Results

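The genes described here are 10 genes of macrophages and of the CSF1 receptor: *Csf1r*, *Csf1*, *Cd68*, *Emr1*, *Mrc1*, *Cd163*, *Lyz1*, *Lyz2*, *Mertk* and *Marco*. They are a set of names, looked up in a table of 22483 loci with a gene name, and all 10 were found there. Where a name has several loci, the one with the highest mean value is used; each of these names had a single locus. *Emr1* is the older symbol of *Adgre1*, which encodes a surface protein of macrophages.

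Mammary gland RNA was sequenced from 2 wild-type mice (*miR-21*+/+, WT) and 2 mice lacking the microRNA (*miR-21*-/-, KO), all 2 months old and all of mixed 129SV::FVB/N::C57BL/6 background. The microRNA is missing from every cell of the KO animals, so a difference does not point to a cell type. Each genotype has a single value per gene that combines its 2 mice. The values therefore carry no error between animals, and no test across mice was possible; every difference below is a comparison of 2 pooled values. The unit is FPKM, the number of sequenced fragments scaled to the length of the exons and to the mapped total of the library, so that levels of different genes can be set side by side. The depth of the libraries is unknown.

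Macrophages are phagocytes that live in nearly every tissue. Their survival depends on CSF1R, a receptor tyrosine kinase of the cell surface that binds the growth factors CSF1 and IL-34. In the mammary gland they gather around growing ducts and in the fat pad, and mice without functional CSF1 have few of them and poorly branched ducts. The remaining genes encode markers by which these cells are recognised, receptors with which they take up lipoproteins, hemoglobin complexes or dying cells, and the lysozymes they secrete.

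The deleted microRNA is shown first, because matches to its seed are one feature that target genes may share. RefSeq (GRCm38.p6) places it on chromosome 11 from 86584120 to 86584141, minus strand. The capitals mark the seed, bases 2 to 8:
mmu-miR-21a-5p: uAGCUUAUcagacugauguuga
A transcript pairs with this seed where it reads ATAAGCT. All 10 genes have an annotated 3′ UTR in the GENCODE annotation of mm9, and 0 of the 10 holds these letters, in any annotated transcript. Among 12074 genes above 1 FPKM, 7.11% hold a match in their longest 3′ UTR. The count says only that these letters are not in these stretches.

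Apart from *Marco*, the genes differed between the genotypes by less than 2-fold. *Csf1r* was at 53.9 FPKM in WT and 52.2 FPKM in KO glands, a log2 fold change of −0.04, while its ligand *Csf1* was 1.51-fold higher in KO glands. Of the 9 genes above 1 FPKM on average, 7 were lower in KO glands and 2 were higher, with a median log2 fold change of −0.20. Over the 13301 named loci above 1 FPKM, 55.7% were lower and the median was −0.03. Of the 9, 8 have a locus of their own, and 6 of these 8 were lower, with a median of −0.23. None of the 9 differed by 2-fold, against 3.86% of those loci, and 1 of the 9 (*Csf1*) differed by 1.5-fold, against 10.9%. All 9 lie above 5 FPKM on average, and of the 9401 named loci above 5 FPKM, 2.04% differed by 2-fold. At 1.5-fold, 310 of these 9401 loci were higher and 352 lower. The 10th gene, *Marco*, lies under 1 FPKM on average and was 8.38-fold lower in KO glands. In tissue of mixed cells, fewer cells of a type and less RNA per cell cannot be told apart.

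**Figure D1:**
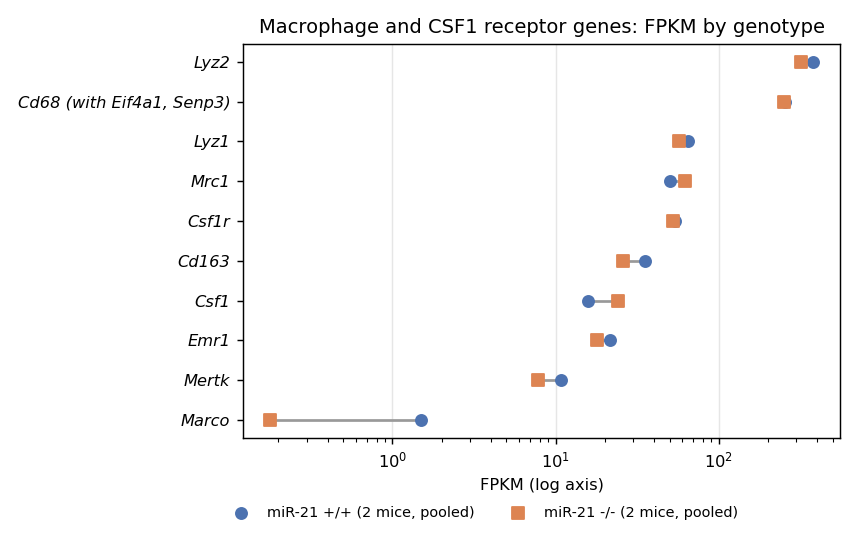
FPKM (log axis) of the 10 genes, ordered by mean level; circles are WT and squares KO glands, each a value pooled over 2 mice, so no error bar can be drawn. *Marco* has by far the widest gap, from 1.49 to 0.178 FPKM. The symbols of *Csf1r* almost coincide, as do those of the locus that merges *Cd68* with *Eif4a1* and *Senp3*.

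The genes span a wide range of levels. *Lyz2* stood highest, above 99.4% of named loci, and *Marco* lowest, above 39.6%. Between them, in falling order of mean level, came the locus of *Cd68*, then *Lyz1*, *Mrc1* and *Csf1r* close together between 53.0 and 61.0 FPKM, then *Cd163*, *Csf1*, *Emr1* and *Mertk*. Neighbours such as *Csf1* and *Emr1*, with means of 20.0 and 19.6 FPKM, swap places between genotypes, since *Csf1* was the lower of the pair in WT and the higher in KO glands.

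The receptor *Csf1r* was close to 1:1 between genotypes, and 81.6% of named loci above 1 FPKM had a larger absolute log2 fold change. Its locus lies on chromosome 18, where the annotated gene covers 26578 bp; the interval printed for it in the table runs 45154 bp further and is shared with *Hmgxb3*, a gene on the opposite strand with a value of its own of 6.09 and 6.43 FPKM. *Csf1* (mm9, chromosome 3, 107543966 to 107563387) was at 15.9 FPKM in WT and 24.0 FPKM in KO glands, a log2 fold change of 0.59. Of the named loci above 1 FPKM, 4.93% had a higher ratio. The other ligand of the receptor, *Il34*, known from keratinocytes and neurons, differed in the opposite direction, at 13.6 and 7.46 FPKM, a log2 fold change of −0.87. The ratio of *Csf1* to *Il34* was therefore 1.17 in WT and 3.22 in KO glands.

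With its ligands and receptor included, the list of the CSF1 receptor pathway held 24 genes, of which 21 had a value of their own. *Syk* had no locus of that name, and *Shc1* and *Mapk3* were merged with neighbouring genes. Of the 21 genes, 7 were higher and 14 lower in KO glands, with a median log2 fold change of −0.10. None reached 2-fold, against 3.86% of named loci above 1 FPKM. At 1.5-fold, *Csf1* was higher and *Il34*, *Pik3cd* and *Ptpn6* were lower. Of all named loci above 1 FPKM, 10.9% differed by 1.5-fold in either direction, and 55.7% were lower by any amount. *Ptpn6*, the SHP-1 phosphatase that restrains the receptor's signal, was at 16.0 and 10.1 FPKM, and *Pik3cd*, a phosphoinositide 3-kinase subunit of leukocytes, at 5.64 and 2.92 FPKM, a value marked as failed by the authors' program. Both are also expressed in lymphocytes, whose markers were lower in the same libraries. *Tyrobp*, an adaptor of myeloid cells and the most abundant gene of the 21 in WT glands, was at 59.8 and 58.6 FPKM.

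The transcription factors of the lineage gave a mixed picture. Of 11 genes with a value of their own, 6 were higher and 5 lower, with a median of 0.01. *Sfpi1*, which encodes PU.1, a factor that acts on the *Csf1r* promoter, was at 12.8 and 13.3 FPKM. *Runx1* had the highest log2 fold change of the list, 0.81. The lowest belonged to *Irf8*, at −0.73.

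**Figure D2:**
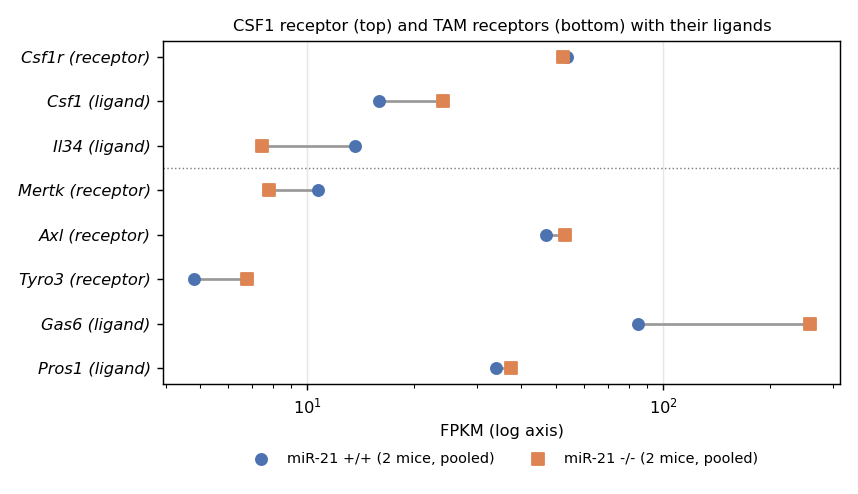
FPKM (log axis) of the CSF1 receptor and its ligands (above the dotted line) and of the TAM receptors and their ligands (below it); circles are WT and squares KO glands, each pooled over 2 mice. *Csf1* and *Il34* lie apart in opposite directions around an almost fixed *Csf1r*, and *Gas6* shows the widest gap, from 85.0 to 258 FPKM.

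*Mertk* (chromosome 2, 128524584 to 128628886) encodes a receptor with which macrophages bind and engulf dying cells, bridged by the ligands GAS6 and protein S. It was at 10.7 FPKM in WT and 7.78 FPKM in KO glands, a log2 fold change of −0.46, and 8.32% of named loci above 1 FPKM had a lower ratio. The other receptors of its family had higher values in KO glands, *Tyro3* at 4.81 and 6.76 FPKM and *Axl* at 46.8 and 52.9 FPKM; the value of *Axl* was marked as failed by the authors' program. Among the ligands, *Gas6* was 3.04-fold higher in KO glands, at 85.0 and 258 FPKM, while *Pros1*, which encodes protein S, was at 34.0 and 37.4 FPKM. *Mertk* and *Gas6* thus differed in opposite directions. *Mfge8*, another bridging protein and also a major protein of milk fat globules, was at 174 and 265 FPKM. Over the 15 genes of this list, *Mertk* included, 8 were higher and 7 lower, with a median of 0.14.

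*Emr1* (chromosome 17, 57497982 to 57622952) and *Cd68* (its locus on chromosome 11, 69477612 to 69495873) are the surface and lysosomal antigens most used to stain mouse macrophages. *Emr1* was at 21.4 FPKM in WT and 17.9 FPKM in KO glands, a log2 fold change of −0.26. The locus that carries *Cd68* read 255 and 252 FPKM, but the table merges it with *Eif4a1*, a translation initiation factor of all cells, and *Senp3*, a SUMO protease, on an interval of 18262 bp. The reads of these 3 genes are not separated, so the value cannot be taken as that of *Cd68*.

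*Mrc1* and *Cd163* mark resident macrophages of connective tissue and fat, and both encode uptake receptors: the mannose receptor and the receptor for hemoglobin bound to haptoglobin. *Mrc1* (chromosome 2, 14151041 to 14257253) was at 50.3 FPKM in WT and 61.8 FPKM in KO glands, a log2 fold change of 0.30. *Cd163* (chromosome 6, 124254548 to 124280653) was at 35.6 and 26.0 FPKM, a log2 fold change of −0.45. The pair differed in opposite directions, and the ratio of *Mrc1* to *Cd163* was 1.41 in WT and 2.37 in KO glands. The authors' program marked *Cd163* as failed, as it did 8.72% of named loci above 1 FPKM. Without *Cd163* the median log2 fold change of the 8 genes above 1 FPKM that remain was −0.12 in place of −0.20.

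The lysozymes are secreted enzymes that cut bacterial cell walls. *Lyz2* is the form of macrophages and neutrophils and *Lyz1* that of intestinal Paneth cells; the genes are tandem copies, 5522 bases apart in the table. *Lyz2* (chromosome 10, 116714597 to 116719328) was at 381 FPKM in WT and 319 FPKM in KO glands, a log2 fold change of −0.25. *Lyz1* (chromosome 10, 116724851 to 116729924) was at 65.3 and 56.8 FPKM, a log2 fold change of −0.20. The ratio of *Lyz2* to *Lyz1* hardly differed between genotypes, at 5.83 and 5.63.

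Reads of these copies cannot always be told apart, which is why a stretch of each is shown. Their coding sequences have 447 bases each in the GENCODE annotation of mm9 and differ at 22 positions, an identity of 95.1%. The stretch of 30 bases where they differ most (coding bases 103 to 132) reads as follows, with the 7 bases that differ in capitals:
Lyz1: atggAtggctacCGtggTgtcaAGctggcT
Lyz2: atggCtggctacTAtggAgtcaGCctggcC
Elsewhere the longest run without a difference is 118 bases. Over the whole transcript, 16.0% of all stretches of 50 bases in *Lyz1* also occur in *Lyz2*, and 2.06% of stretches of 100 bases. With reads of 36 bases the share would be 28.5%. The length of the reads is not given in the sources used here, so the part of the *Lyz1* value that belongs to *Lyz2* is uncertain. The other members of the lysozyme family were low: *Lalba*, the milk protein alpha-lactalbumin, was at 1.47 and 0.996 FPKM, and 7 of the 10 listed genes were at or under 1 FPKM on average.

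*Marco* (chromosome 1, 122371115 to 122401661) encodes a scavenger receptor for bacteria and particles that in mice is characteristic of macrophages of the splenic marginal zone and of lymph node sinuses. It was at 1.49 FPKM in WT and 0.178 FPKM in KO glands, a log2 fold change of −3.07. On the log2(FPKM + 1) scale the change was −1.08, so that its size depends on how low values are treated. Adding the same number to both values cannot change the direction, so the direction was not tested by it. Among named loci with means from 0.5 to 1.5 FPKM, 14.1% differed by 2-fold or more and 0.81% were at least 8-fold lower. Over all named loci above 1 FPKM the share at 2-fold was the 3.86% given above, so low genes scattered more than abundant ones.

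**Figure D3:**
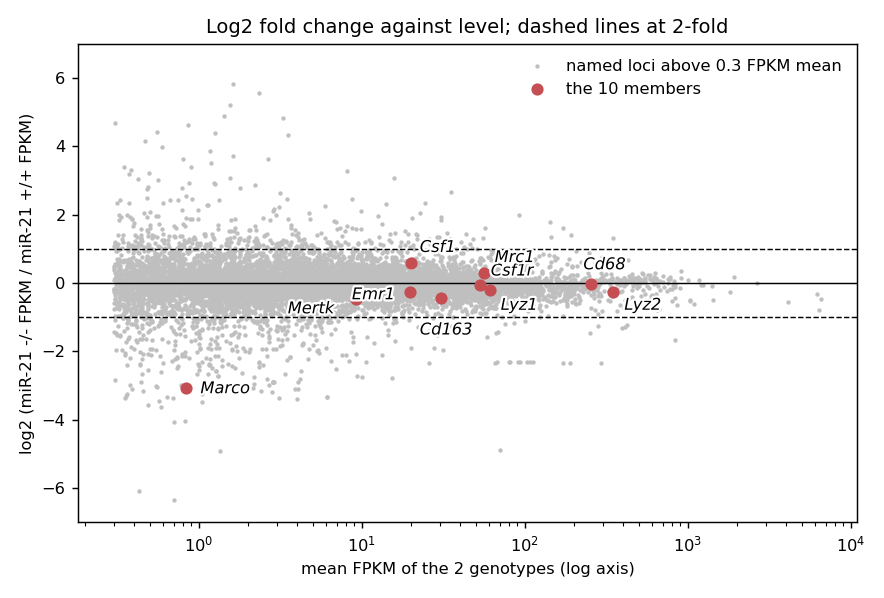
Log2 ratio of KO over WT FPKM against the mean FPKM (log axis) for named loci above 0.3 FPKM (grey) and the 10 genes (red); dashed lines mark 2-fold. Of the 10 labelled genes, 9 lie between the dashed lines and only *Marco* lies outside, at 0.834 FPKM and −3.07.

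Of the other scavenger receptors in the list, *Stab2* was low in both genotypes, at 0.313 and 0.135 FPKM, and *Olr1* was at 0.0964 and 0.111 FPKM. *Msr1*, the class A receptor of macrophages, was higher in KO glands, at 2.83 and 5.13 FPKM, a log2 fold change of 0.86. *Stab1* was at 26.3 and 27.9 FPKM and *Colec12* at 33.2 and 30.5 FPKM. Over the 11 genes of this list above 1 FPKM with a value of their own, 5 were higher and 6 lower, with a median of −0.06. The 11 include *Mrc1* and *Cd163*.

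Lymphoid genes were much lower in the same KO libraries. Of the lymph node markers above 1 FPKM, 8 of 9 were lower, with a median log2 fold change of −2.16 and a summed level of 225 FPKM in WT and 58.4 FPKM in KO glands. Most of that difference came from *Glycam1*, a mucin of lymph node venules that mammary epithelium also makes, at 136 and 4.63 FPKM. Without it the sums were 89.3 and 53.8 FPKM. *Madcam1*, an adhesion molecule of venules, was the gene of the list that was higher in KO glands, at 0.576 and 1.56 FPKM. All 7 B cell markers (median −2.96, sums of 35.0 and 5.45 FPKM) and all 10 T cell markers (median −2.10, sums of 60.7 and 14.3 FPKM) were at least 2-fold lower. On the log2(FPKM + 1) scale the 3 medians were −1.57, −1.70 and −1.55. The lectins *Cd209b* and *Fcna*, also in the lymph node list, were at −0.60 and −0.07. The part of lymphoid tissue in the values of *Marco*, *Ptpn6*, *Pik3cd* and *Irf8* was not tested.

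Further markers of macrophages, fixed as a list of 25 genes, gave 24 with a value of their own. Of these 13 were higher and 11 lower in KO glands, with a median log2 fold change of 0.01, and their FPKM summed to 923 and 904. The 3 chains of complement C1q, which tissue macrophages make in large amounts, were its most abundant genes: *C1qa* was at 147 and 137 FPKM, *C1qb* at 129 and 136 FPKM and *C1qc* at 118 FPKM in both genotypes. None of the 24 reached 2-fold, against 3.86% of named loci above 1 FPKM. *Cd14*, a receptor for bacterial lipopolysaccharide, had the highest log2 fold change (0.75, from 25.4 to 42.7 FPKM) and *Cd86*, a costimulatory molecule shared with B cells and dendritic cells, the lowest (−0.82). *Fcgr1* (0.49) and *Ms4a7* (−0.53) came next on either side.

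Genes of resident macrophages lay on both sides of 0, but those that differed by 1.5-fold or more were all higher in KO glands. Of 16 genes, 10 were higher and 6 lower, with a median of 0.09. At 2-fold, 2 were higher and 0 lower, against 227 and 286 of the 13301 named loci above 1 FPKM. At 1.5-fold, 4 were higher and 0 lower, against 669 and 775 of those loci. *Gas6* and *Lyve1* were at least 2-fold higher; *Lyve1*, also a marker of lymphatic vessels, was at 19.6 and 42.7 FPKM. *Prox1*, which defines lymphatic endothelium, was low, at 0.195 and 0.139 FPKM, and *Flt4* was at 1.59 and 1.81 FPKM. *Mgl2* and *Cd209d*, lectins of resident macrophages, were also 1.5-fold higher or more, with log2 fold changes of 0.63 and 0.60. The lowest were *Sepp1*, a plasma selenoprotein made by many cells (−0.50), and *Siglec1*, a sialic acid receptor (−0.48).

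**Figure D4:**
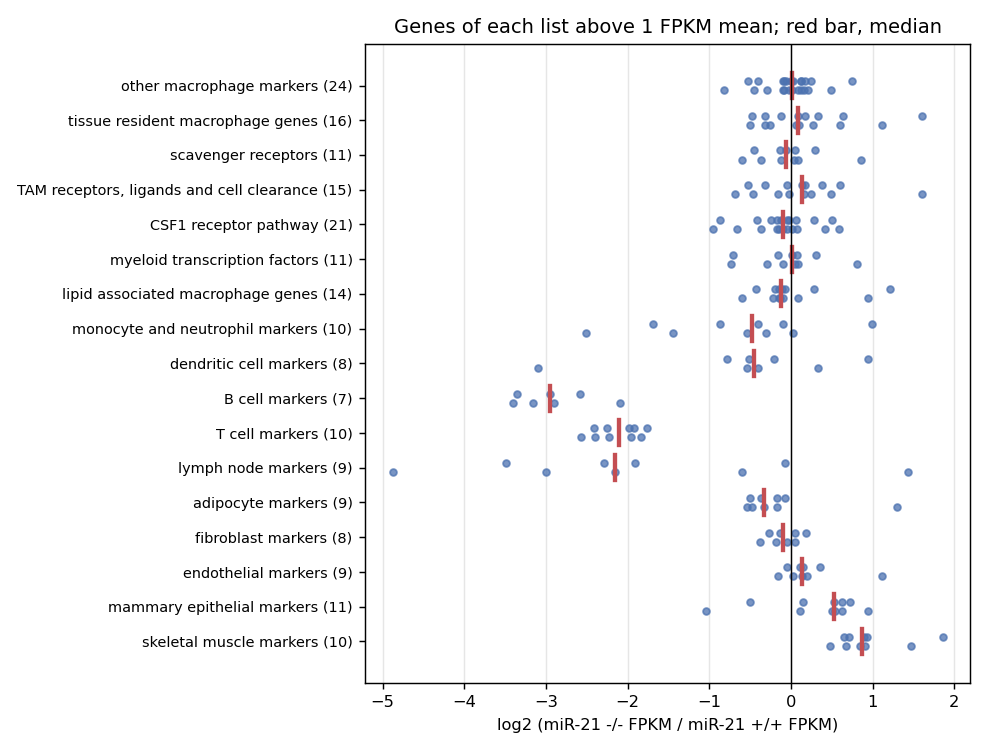
Log2 ratio of KO over WT FPKM for each gene (dots) of 17 lists above 1 FPKM mean; red bars are medians and numbers in brackets are genes measured. The first 7 lists have medians from −0.12 to 0.14, whereas B cell, T cell and lymph node lists lie near −2 to −3. Muscle and epithelial lists lie to the right. The lists of the 10 genes, of the lysozymes and of the activation genes, with medians from −0.25 to −0.15, are not drawn. Nor is the list of other colony stimulating factors and receptors, with a median of 0.10. Some of the 10 genes are dots in other lists.

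Markers of the other tissues of the gland differed too. Adipocyte markers were lower in 8 of 9 cases, with a median log2 fold change of −0.32, *Adipoq* being at 1207 and 853 FPKM. The exception was *Lep*, at 27.7 and 67.9 FPKM. Epithelial markers were higher in 9 of 11 cases (median 0.52), *Krt8* being at 119 and 197 FPKM. The exceptions were *Csn2*, at 14.8 and 7.21 FPKM, and *Esr1*, marked as failed by the authors' program, at 17.7 and 12.5 FPKM. All 10 skeletal muscle markers were higher (median 0.87). Endothelial and fibroblast markers had medians of 0.14 and −0.09. The part of tissue makeup in the values of the 10 genes was not tested.

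Small ratios depend on how the columns are scaled. Named loci sum to 380567 FPKM in WT and 355385 in KO glands, and all loci, named or not, to 759295 and 1.18e+06. Scaling to equal sums over all loci lowers every log2 fold change by 0.63, with the median of all named loci at −0.66, and then all 10 genes are lower, *Csf1* at −0.04 and *Mrc1* at −0.33. Both stay above that median. *Tyro3*, *Axl*, *Pros1* and *Mfge8* change sign under it as well, to −0.14, −0.45, −0.49 and −0.02, while *Gas6* stays at 0.97, and the median of the epithelial markers becomes −0.11. With equal sums over named loci alone, every value rises by 0.10, and 5 of the 9 genes are lower, *Csf1r* being at 0.05. The named loci at 2-fold or more are then 298 higher and 242 lower, against 227 and 286 as deposited, and the median of the 9 genes is −0.10. The table lists *Mir21* together with its host gene *Vmp1*, at 42.5 and 68.2 FPKM, which does not measure the mature microRNA and cannot check the genotypes.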

How the data were processed

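Poly(A) RNA of 4 mammary glands, 2 per genotype, was sequenced as single-end reads. The authors used TopHat for alignment to mm9, and they deposited a Cuffdiff table with a pooled FPKM value per genotype. In that deposited table a status word says whether a locus could be evaluated. Program versions, annotation and read length are not given in the sources used here. The table also holds the authors' fold changes, test statistics, p-values and q-values, which were not used.

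Log2 fold changes were computed as plain ratios of the deposited FPKM values, miR-21-/- over miR-21+/+, without a pseudocount. Counts and medians cover loci with a mean above 1 FPKM. A difference was counted at 2-fold, the limit of the study. The analysis planned for a column per mouse was not run. Starts count from 0 in the table, and 1 was added. Merged loci entered a list only if all their names were in it, but the counts over 9 members include the merged locus of *Cd68*. The members and the 21 further lists were chosen with earlier results of these data known, from general knowledge. Named genes are the members, the 2 highest, 2 lowest and 2 most abundant genes of each list, those at 2-fold, and the ligand and receptor families; others (*Cd209b*, *Fcna*, *C1qc*, *Sfpi1*, *Mgl2*, *Cd209d*, *Prox1*, *Flt4*, *Arg1*, *Trem2*, *Ly6c2*, *Csf2*, *Csf3* and genes that share a locus with a member) were named after their values were seen. Protein sequences were not used here. Alternatives were pseudocounts of 0.1 and 1, a minimum of 5 FPKM or none, a 1.5-fold limit, 3 scalings and other choices of loci. Scripts were tested on simulated data and used Python 3.11.15, numpy 2.4.6, pandas 2.3.3 and matplotlib 3.10.9. Some genes counted in the lists are not reported here by name.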

Additional observations from a re-analysis of the deposited data

How the results depend on the processing

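No paired analysis was possible because both mice of a genotype share 1 pooled value, and for the same reason no mouse could be left out. With no spread between mice, a log2 value was taken as moved when it changed by more than 0.1. The median of the members, −0.20, moved by that measure only with equal sums over all loci, to −0.83, where 2 of the 9 members were at least 2-fold lower and the named loci at 2-fold were 54 higher and 1535 lower, against 227 and 286 as reported. This follows from the scaling itself. On the log2(FPKM + 1) scale the named loci at 2-fold were 121 higher and 168 lower, with more than 5 FPKM 90 and 102, and without a minimum 865 and 918, where *Marco* enters as the 1 member at least 2-fold lower. With a 1.5-fold limit they were 669 and 775, with 1 member, *Csf1*, higher. The median of the members was −0.10 with equal sums over named loci, −0.15 without *Cd68*, *Lyz1* and *Lyz2*, −0.12 without *Cd163* and −0.23 without *Csf1r*; the last 2 choices were made after seeing the data. Under pseudocounts of 0.1 and 1, only *Marco* moved among the 10 members, to −2.52 and −1.08. Without a minimum, the list medians turned from −0.25 to 0.24 for the lysozymes and from −0.15 to 0.04 for classical activation, and moved from −0.17 to −0.02 for alternative activation and from −0.47 to −0.71 for monocytes and neutrophils. The unknown depth limits the low values most.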

Other observations

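Genes of macrophage activation were found on both sides of 0. Of the alternative activation genes above 1 FPKM, 3 of 8 were higher and 5 lower in KO glands, with a median log2 fold change of −0.17. The members *Mrc1* and *Cd163* are among these 8. *Retnla*, a secreted protein of adipose tissue and of macrophages exposed to interleukin 4, was the most abundant, at 608 and 487 FPKM. *Il4ra*, the receptor of that cytokine, was at 10.4 and 28.2 FPKM, a log2 fold change of 1.43. *Ccl22*, a chemokine of dendritic cells and macrophages, was at 5.84 and 0.930 FPKM. *Arg1* was low in both genotypes, at 0.265 and 0.880 FPKM. Of the classical activation genes, 3 of 8 were higher and 5 lower, with a median of −0.15 that became −0.35 for genes above 5 FPKM and 0.04 without a minimum. *Ccl5*, which T and NK cells also make, was at 21.5 and 4.97 FPKM, and *Nos2* at 1.01 and 1.61 FPKM.

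Of 14 genes of lipid-laden macrophages, 4 were higher and 10 lower in KO glands, with a median of −0.12. *Gpnmb* was at 1.92 and 4.44 FPKM and *Itgax* at 1.45 and 2.80 FPKM, while *Trem2* was at 7.80 and 7.30 FPKM. *Lpl*, also a major adipocyte enzyme, was at 1319 and 871 FPKM, and *Ctsd* at 503 and 374 FPKM. Monocyte and neutrophil markers were lower in 8 of 10 cases, with a median of −0.47. *Ly6c2* was at 46.5 and 35.3 FPKM and *Ccr2*, the receptor of recruited monocytes, at 12.0 and 12.1 FPKM. Dendritic cell markers were lower in 6 of 8 cases, with a median of −0.46, *Ccr7*, which naive T cells also express, being at 6.98 and 0.817 FPKM. The 2 that were higher were *Itgax* and *Cd209a*, the latter at 6.66 and 8.39 FPKM. The other colony stimulating factors *Csf2* and *Csf3* were under 1 FPKM, and the receptor chain *Csf2ra* was at 15.4 and 16.8 FPKM.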
